A study of Mus musculus with 12 samples.

Results

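Polycomb repressive complex 1 (PRC1) was followed through 10 of its genes, which were fixed by name: Bmi1, Pcgf1, Pcgf2, Pcgf5, Pcgf6, Ring1, Rnf2, Cbx2, Cbx7 and Cbx8. All 10 were among the 27998 genes of the count tables, and all 10 passed the filter on low counts that left 12848 genes for testing. PRC1 silences genes by attaching ubiquitin to histone H2A. Its catalytic core pairs RING1 or RNF2 with a protein of the PCGF family, and the choice of PCGF protein sets the type of complex. BMI1 and PCGF2 sit in canonical PRC1, where a CBX protein binds the histone H3 mark that PRC2 and its methyltransferase EZH2 deposit. PCGF1, PCGF5 and PCGF6 belong to variant complexes, which carry RYBP or YAF2 in place of a CBX protein. In blood, BMI1 is best known for keeping hematopoietic stem cells self-renewing and for silencing Cdkn2a, which encodes inhibitors of cell growth.

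The cells were hematopoietic stem/progenitor cells (HSPCs), collected as c-Kit+ cells by magnetic enrichment, per the labels from mouse femurs and tibias (the study's methods also name other bones), and profiled by droplet scRNA-seq with 3′ chemistry. Per the labels the mice were 8 to 12 weeks old when injected with pIpC, which induces Mx1-Cre, while the study's methods give a younger age. The 4 genotypes were WT (without Mx1-Cre), E2-KO (Mx1-Cre+;Ezh2 f/f), G12D (Mx1-Cre+;NRas G12D+/-) and G12D/E2-KO (Mx1-Cre+;NRas G12D+/-;Ezh2 f/f), so that the WT mice differed from every mutant in Cre as well. Mx1-Cre is also active outside blood, in other cells that respond to interferon. Marrow was taken at T1, T2 and T3, which fell 2 weeks, 2 months and 4 months after pIpC. There was 1 library for each genotype and time point, and the 3 time points served as the replicates of a genotype (n = 3). The number of mice per library was not given, so p-values measure the spread between libraries that also differ in time.

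The 12 libraries held 2350 to 3767 cells used and 12.6 to 23.6 M UMIs (10 to the power of 6), each UMI standing for 1 captured RNA molecule. Levels are given as CPM, the UMIs of a gene per M UMIs of its library or cell class. In all, 2896 cells of the G12D T1 table matched cells of the G12D/E2-KO T1 table and were counted only in the latter. The Ezh2 and Bmi1 levels of these cells were among the grounds for that choice of table, so the G12D T1 level of Bmi1 (15.5 CPM, or 41.6 CPM with cells as deposited) and the contrasts against G12D depend on it. Xist stood at 1296 to 1357 CPM in WT T3, E2-KO T3 and G12D T3 while the other 9 libraries had 0.608 CPM at most, so these libraries differ in the sex of the mice as well as in time. G12D/E2-KO T3 had 0.13 CPM, so contrasts of G12D/E2-KO with the other genotypes also set different sexes against each other at T3. Kit itself reached 43.6 to 80.8 CPM, with a UMI in 20.2% to 30.4% of cells. The deleted gene, Ezh2, stood at 133, 103 and 103 CPM in WT at T1, T2 and T3, and at 27.7, 27.9 and 34.6 CPM in E2-KO. It stood at 86.3, 103 and 81.7 CPM in G12D and at 20.7, 25.3 and 22.4 CPM in G12D/E2-KO. The groups with and without the deletion did not overlap, and 3′ tags also count transcripts that lost exons but kept their 3′ end.

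Bmi1 (ENSMUSG00000026739) lies on the plus strand of chr2:18677018-18686629 (GRCm38/mm10, GENCODE vM21). Its nearest upstream neighbour, Commd3 (ENSMUSG00000051154; chr2:18672384-18676231), runs on the same strand and ends 786 bases before Bmi1 begins. Commd3 encodes a protein of the COMMD family, which acts in the sorting of membrane proteins. The 250 bases before each start are shown because the RNA levels of these adjacent genes are compared below. They were read from RefSeq (GRCm38.p6), plus strand, 5′ to 3′, with each CG dinucleotide in capitals. The first stretch is chr2:18676768-18677017 and lies within the gap between both genes. The second is chr2:18672185-18672434 and ends before the RefSeq start of Commd3 (chr2:18672435), which lies inside the GENCODE span.
Bmi1: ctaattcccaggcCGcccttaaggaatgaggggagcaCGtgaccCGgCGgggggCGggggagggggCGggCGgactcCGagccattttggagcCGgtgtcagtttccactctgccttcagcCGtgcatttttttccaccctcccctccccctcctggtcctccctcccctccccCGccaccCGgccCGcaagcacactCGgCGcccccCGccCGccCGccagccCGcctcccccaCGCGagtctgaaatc
Commd3: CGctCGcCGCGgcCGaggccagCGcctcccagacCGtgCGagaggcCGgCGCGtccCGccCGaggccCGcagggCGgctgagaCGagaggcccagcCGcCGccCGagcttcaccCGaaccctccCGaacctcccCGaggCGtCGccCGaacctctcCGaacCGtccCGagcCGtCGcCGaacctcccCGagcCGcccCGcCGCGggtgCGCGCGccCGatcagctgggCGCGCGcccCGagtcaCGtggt

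The Bmi1 stretch held 21 CG dinucleotides and was 70.4% G or C, against medians of 6 and 52.4% over 32851 promoter entries of the same length, of which 83.7% held fewer CG. The Commd3 stretch held 45 CG, more than 99.6% of the entries. Each held 1 copy of CACGTG, an E-box, which reads the same on either strand and occurred in 6.02% of all entries. Of the 10 PRC1 genes, 8 had a promoter entry, and Pcgf1 and Cbx2 had none. Pcgf2 held the fewest CG dinucleotides among the genes with 1 entry (5), and Ring1 the most (30). The E-box was also present in 1 copy upstream of Pcgf2 and Cbx8.

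The first question was whether loss of Ezh2, the PRC2 enzyme, changes the RNA of PRC1. Of the 10 genes, only Bmi1 was called in the contrasts that remove Ezh2, and it rose to about 4 times its level in the matching control. Calls are adjusted p-values under 0.05 in edgeR's quasi-likelihood test, with Benjamini-Hochberg adjustment over all genes tested. Bmi1 stood at 21.9, 17.3 and 19.3 CPM in WT at T1, T2 and T3. In E2-KO it stood at 73.1, 77.8 and 78.3 CPM. In G12D it stood at 15.5, 15.9 and 19.6 CPM, and in G12D/E2-KO at 65.5, 77.6 and 91.7 CPM. Every library with deleted Ezh2 lay above every library with intact Ezh2, with a gap from 21.9 to 65.5 CPM. The size of this gap rests in part on the table chosen for the 2896 matched cells, a choice made partly on their Bmi1 level. With cells as deposited G12D T1 stood at 41.6 CPM.

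**Figure D1:**
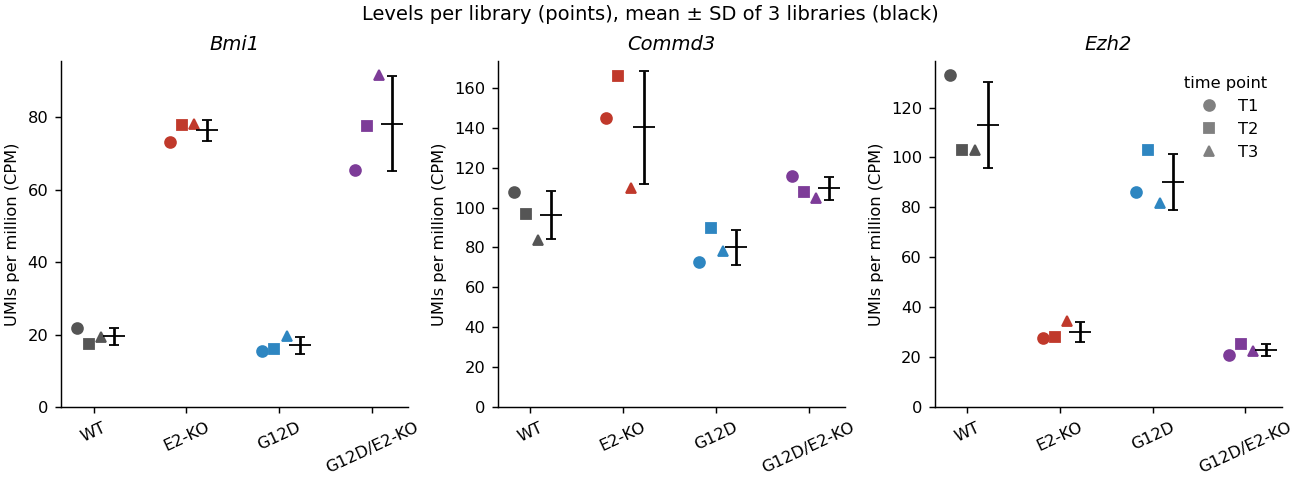
Levels of Bmi1, Commd3 and Ezh2 in CPM (linear axes from 0) in the 12 libraries, grouped by genotype, with points for T1, T2 and T3 and bars for the mean ± SD (n = 3). Bmi1 reaches 65.5 to 91.7 CPM in E2-KO and G12D/E2-KO and 15.5 to 21.9 CPM in WT and G12D, Commd3 overlaps more between genotypes, and Ezh2 runs the other way. The matched cells count only in G12D/E2-KO T1.

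The log2 fold change of Bmi1 in E2-KO against WT was 1.96 (SE 0.12, adjusted p = 5.06e-05), or 3.89-fold, where 1.30% of all genes tested were called higher. In G12D/E2-KO against WT, where 3.73% were called higher, it was 1.94 (SE 0.12, adjusted p = 5.49e-05). These 2 comparisons share the WT libraries. G12D/E2-KO against G12D shares no library with E2-KO against WT, and there the change was 2.11 (SE 0.12, adjusted p = 2.52e-05), with 1.21% of genes called higher. With cells as deposited it was 1.56 (SE 0.28, adjusted p = 0.299) and was not called, and without both T1 libraries that share cells it was 2.10 (SE 0.16, adjusted p = 0.00366). No difference was detected with mutant NRas. Bmi1 differed by -0.16 (SE 0.12, adjusted p = 0.611) between G12D and WT and by -0.02 (SE 0.12, adjusted p = 0.957) between G12D/E2-KO and E2-KO, where 0.109% and 0.0934% of genes were called in either direction. The interaction, which is the departure of the double mutant from the sum of both single changes on the log2 scale, was 0.15 (SE 0.17, adjusted p = 1), against 0.0934% of genes called. G12D against WT turned to 0.40 with cells as deposited (SE 0.28, adjusted p = 0.57) and the interaction to -0.42 (SE 0.39, adjusted p = 0.999), neither called.

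In summed libraries, fewer cells of a type and less RNA per cell cannot be told apart. Bmi1 was also counted cell by cell, as the share of cells with a UMI. Each cell was thinned at random to 3000 UMIs, which left out 152 to 990 shallower cells per library. The loss was uneven, with 152 to 279 cells in WT libraries, 876 of 2586 in E2-KO T3 and 990 of 3767 in G12D/E2-KO T2. The cells compared were thus not selected equally. A Bmi1 UMI was then found in 6.13%, 4.53% and 5.19% of WT cells at T1, T2 and T3, and in 18.2%, 19.8% and 20.2% of E2-KO cells. It was found in 4.12%, 4.03% and 5.62% of G12D cells and in 16.5%, 19.9% and 23.5% of G12D/E2-KO cells. The groups with and without Ezh2 did not overlap, and before thinning the shares were 9.63% to 13.7% with intact Ezh2 and 29.2% to 39.2% with deleted Ezh2. The G12D T1 shares depend on the table chosen for the matched cells. The thinned shares were close to those of a Poisson draw at each library's mean, for example 18.2% measured and 18.3% computed in E2-KO T1. They thus largely restate the library means, and cannot tell a change in the mix of cells from a change in RNA per cell. Cells with at least 2 Bmi1 UMIs made up 0% to 0.281% of the thinned cells in the 6 libraries with intact Ezh2 and 1.78% to 3.03% in the 6 with deleted Ezh2. No cell class that lacks Bmi1 was available as a measure of free RNA.

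The mix of cells also differed between genotypes. Late granulocytic cells, which held little Bmi1 in WT, made up 31.6% to 38.4% of WT cells and 11.3% to 15.4% of E2-KO cells. In G12D/E2-KO their share was 14.3% to 39.3%, which overlapped WT. Late erythroid cells, also low in Bmi1 in WT, went the other way, with 5.45% to 10.2% of WT and 9.21% to 23.5% of E2-KO cells. When every library was given the mean WT mix of 7 cell classes, Bmi1 stood at 18.8 ± 1.76 CPM in WT and 71.9 ± 3.12 CPM in E2-KO (SD, n = 3). G12D then had 16.7 ± 1.87 CPM and G12D/E2-KO had 74.7 ± 6.41 CPM. The separation was therefore present at a common class mix.

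The other PCGF genes did not pass the test in any genotype contrast. Pcgf2, the closest paralog of Bmi1 and its alternative in canonical PRC1, stood at 2.08, 3.04 and 2.61 CPM in WT and at 4.16, 3.52 and 3.24 CPM in E2-KO. All 3 E2-KO libraries lay above the WT range, but the log2 difference of 0.50 (SE 0.26) had an adjusted p of 0.367. In G12D/E2-KO Pcgf2 stood at 2.29, 3.72 and 4.41 CPM, which overlapped WT. It gave only 35 to 79 UMIs per library, which limits the precision. Pcgf1, the partner of BCOR and KDM2B in variant PRC1, ran from 8.47 to 13.2 CPM over all 12 libraries. Its log2 differences from WT were 0.05 (SE 0.16) in E2-KO and -0.05 (SE 0.15) in G12D/E2-KO. Pcgf5, which also forms variant PRC1, ran from 30.2 to 42.4 CPM, with differences of -0.01 and 0.06 (SE 0.11 each). For Pcgf5 the error was as small as for Bmi1, and its difference stayed within 1 SE of 0 in both contrasts. Pcgf6, the PCGF protein of the MGA and MAX complex, stood at 15.2, 12.0 and 12.8 CPM in WT and at 6.37, 10.3 and 14.4 CPM in G12D/E2-KO. That difference was -0.48 (SE 0.21, adjusted p = 0.173), and the ranges overlapped.

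The RING genes encode the E3 ligases shared by all forms of PRC1, and their RNA levels differed from WT with opposite signs, neither of them called. Ring1 stood at 18.5, 18.2 and 19.3 CPM in WT. It stood at 14.1, 16.2 and 7.36 CPM in E2-KO, at 13.5, 18.1 and 11.7 CPM in G12D and at 10.5, 11.1 and 15.6 CPM in G12D/E2-KO. Ranges apart from WT, in either direction, were found for 25.7% (E2-KO), 16.8% (G12D) and 25.2% (both lesions) of all genes. For Ring1 all 9 mutant libraries were below the WT range, with a G12D margin of only 18.1 against 18.2 CPM. The log2 difference was -0.62 in E2-KO (SE 0.22, adjusted p = 0.202), -0.36 in G12D (SE 0.22, adjusted p = 0.532) and -0.66 in G12D/E2-KO (SE 0.22, adjusted p = 0.0890), and none was called. With each library left out in turn these were -0.79 to -0.36, -0.48 to -0.19 and -0.90 to -0.48. In G12D/E2-KO against WT the call depended on single libraries, since Ring1 passed without E2-KO T3 (-0.67, adjusted p = 0.0392) and without G12D/E2-KO T3 (-0.90, adjusted p = 0.0329). Ring1 reads highest in the erythroid progenitor class described below (27.7 CPM in WT). The share of this class was 18.5% to 22.9% of cells in WT and 14.7% to 23.7% in E2-KO. It was 8.31% to 18.5% in G12D and 7.98% to 13.7% in G12D/E2-KO. Within this class Ring1 ran from 26.3 to 29.6 CPM in WT and from 13.7 to 21.9 CPM in E2-KO. It ran from 21.6 to 24.5 CPM in G12D and from 15.7 to 22.2 CPM in G12D/E2-KO, and was not called there. The part of the class share in the result was not tested.

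Rnf2, the main H2A ligase in most cells, stood at 27.7, 22.6 and 20.3 CPM in WT and at 25.7, 31.3 and 31.1 CPM in E2-KO. In G12D it stood at 26.9, 25.6 and 26.5 CPM, and in G12D/E2-KO at 26.2, 36.3 and 36.0 CPM. The E2-KO and G12D/E2-KO ranges overlapped WT only through their T1 libraries. The log2 difference was 0.31 in E2-KO (SE 0.15, adjusted p = 0.347) and 0.42 in G12D/E2-KO (SE 0.15, adjusted p = 0.108). Rnf2 overlaps Trmt1l on the opposite strand, and Cbx7 overlaps Apobec3 on the opposite strand. Reads in those overlaps can be told apart only if counting used the strand, which was not stated.

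The CBX genes encode the chromodomain subunits that read the PRC2 mark. Cbx8 stood at 5.70, 5.88 and 5.12 CPM in WT and at 6.95, 5.52 and 6.17 CPM in G12D. It stood at 4.37, 4.82 and 2.77 CPM in E2-KO and at 3.99, 4.42 and 2.85 CPM in G12D/E2-KO. The 6 libraries with deleted Ezh2 thus lay below the 6 with intact Ezh2, by a margin of 4.82 against 5.12 CPM and on 35 to 139 UMIs per library. The share of all genes that split in this way was not computed. Ranges of G12D/E2-KO and G12D were apart for 13.7% of all genes, and those of E2-KO and WT for 25.7%. No contrast passed the test, with log2 differences of -0.52 in E2-KO against WT (SE 0.21, adjusted p = 0.264), -0.63 in G12D/E2-KO against WT (SE 0.21, adjusted p = 0.0947) and -0.83 in G12D/E2-KO against G12D (SE 0.21, adjusted p = 0.0945). Cbx2 ran from 1.69 to 5.53 CPM in WT, from 3.79 to 4.59 CPM in E2-KO and from 1.55 to 2.51 CPM in G12D/E2-KO. G12D/E2-KO differed from E2-KO by -0.99 on the log2 scale (SE 0.34, adjusted p = 0.155), without overlap, as did 18.4% of all genes, but with only 24 to 93 UMIs per library. Cbx7, the CBX protein most tied to stem cell self-renewal, ran from 3.74 to 4.10 CPM in WT, from 3.38 to 5.62 CPM in E2-KO and from 3.05 to 3.55 CPM in G12D/E2-KO. Its differences of 0.12 (SE 0.27) and -0.28 (SE 0.27) were not called.

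**Figure D2:**
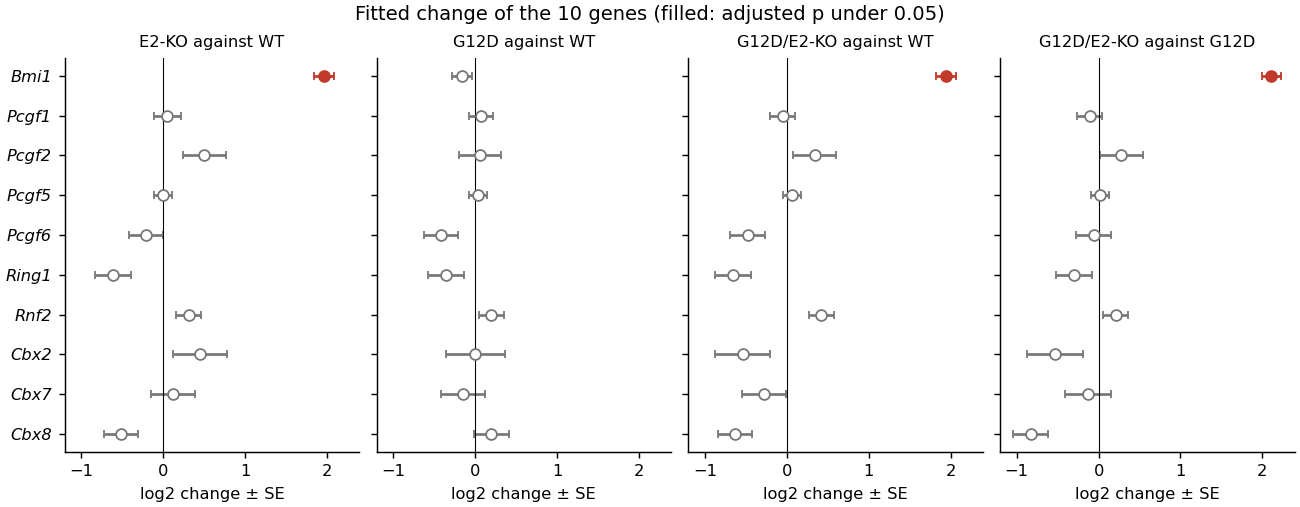
Log2 fold change ± SE of the 10 PRC1 genes in 4 contrasts, which set each mutant against WT and the double mutant against G12D, with filled points for genes called at an adjusted p under 0.05. Bmi1 lies at 1.94 to 2.11 in the 3 contrasts that delete Ezh2 and at -0.16 in G12D against WT, and the other 9 genes lie between -0.83 and 0.50 with no filled point.

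Read against all genes, the count of 1 gene called among 10 came from a single large change. Against WT, the 10 genes had a median log2 change of 0.08 in E2-KO, 0.02 in G12D and -0.17 with both lesions, beside 0.00, -0.01 and 0.01 over all genes tested. At an unadjusted p under 0.05 there were 3 of 10 in E2-KO (all genes 16.1%), 0 of 10 in G12D (11.8%) and 5 of 10 in G12D/E2-KO (26.2%). The 5 were Bmi1, Pcgf6, Ring1, Rnf2 and Cbx8. Ranges that did not overlap WT were found for 4 of 10 in E2-KO (25.7% of all genes), 1 of 10 in G12D (16.8%) and 4 of 10 in G12D/E2-KO (25.2%). Apart from Bmi1, these shares rest on genes that were not called.

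None of the 10 genes was called between time points after pIpC. Over the 4 genotypes, Bmi1 differed by -0.03 between T2 and T1 (SE 0.10, adjusted p = 0.979) and by 0.16 between T3 and T1 (SE 0.10, adjusted p = 0.483). In G12D/E2-KO its values ran from 65.5 CPM at T1 to 91.7 CPM at T3, and a single library per time point leaves this without a test. Pcgf1 was lower at T3 than at T1 in 4 of 4 genotypes, by -0.45 on the log2 scale (SE 0.13, adjusted p = 0.365). No gene at all was called by edgeR between time points (0% of 12848), while 4.66% and 13.1% of genes had an unadjusted p under 0.05, and DESeq2 called 6 and 19. Other edgeR fits called up to 3 genes in T2 against T1 (without the 4 T3 libraries) and up to 7 in T3 against T1 (without G12D/E2-KO T3). Of the T3 libraries, 3 also differ in Xist, so time and sex cannot be told apart there.

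Cell classes were then compared. Each cell was assigned to the class whose marker list it matched best, and a class name stands for cells that are like that type. Of the 10 classes scored, none was for dendritic cells or for T and NK cells, so such cells had no class of their own. In 7 classes every library held 20 cells or more, namely stem cells with multipotent progenitors (HSC/MPP-like), granulocyte-macrophage progenitors with early granulocytic cells (GMP/early GN-like), promonocytes (ProMo-like), late granulocytic cells (Late GN-like), megakaryocyte-erythroid progenitors with early erythroid cells (MEP/early Ery-like), late erythroid cells (Late Ery-like), and basophils and mast cells (Baso/mast-like). The HSC/MPP-like cells were led by Hlf, Adgrl4, Cd34 and Flt3 in WT. The ProMo-like cells were led by Cd74 and MHC class II genes beside Irf8, Ccr2 and F13a1. Since Cd74 and H2-Aa are also dendritic cell markers, ProMo-like values may include dendritic cells. Only 1 of the MEP/early Ery markers, Car1, was among the leading 10 genes of that class. Of the 6 Baso/mast markers listed, only 3 entered the score, namely Cpa3, Mcpt8 and Ms4a2. The study lists Cpa3 among HSC/MPP-enriched genes that are raised in G12D/E2-KO. In G12D/E2-KO T3 the Baso/mast-like class held 136 cells, but 28 when cells took the class of the nearest cell in WT clusters. Its name is therefore less certain in that genotype. No class was found for 6.58% of cells, and 4.49% lay close to the limit between classes.

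In WT the level of each PRC1 gene was compared between classes. Bmi1 stood at 39.7, 38.9 and 33.1 CPM in HSC/MPP-like cells at T1, T2 and T3. It followed with 30.5 ± 19.1 CPM in Baso/mast-like, 24.5 ± 1.67 in MEP/early Ery-like, 23.3 ± 3.38 in GMP/early GN-like and 18 ± 8.61 in ProMo-like cells (SD, n = 3). It was lowest in Late Ery-like cells (7.05 ± 0.742 CPM) and Late GN-like cells (5.96 ± 0.288 CPM). Among neighbours in this order, only ProMo-like and Late Ery-like cells had ranges apart, and the other 5 of 6 pairs overlapped. The HSC/MPP-like level rested on 62 UMIs over 3 libraries, the Baso/mast-like level on 13 and the ProMo-like level on 17.

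Pcgf2 and Cbx7 were also highest in HSC/MPP-like cells, each apart from the next class by mean, while single Baso/mast-like libraries (9.12 CPM for Pcgf2 and 15.3 CPM for Cbx7, on 2 UMIs each) reached into the HSC/MPP-like range. Pcgf2 stood at 9.82 ± 3.24 CPM there and at 0.375 ± 0.164 CPM in Late GN-like cells. Cbx7 stood at 12.9 ± 4.54 CPM in HSC/MPP-like cells, followed by 6.04 ± 0.864 in MEP/early Ery-like cells. It reached 0.674 ± 0.255 CPM in Late GN-like cells and 0 CPM, on 0 UMIs, in ProMo-like cells. The HSC/MPP-like values rested on 17 UMIs for Pcgf2 and 21 for Cbx7. Cbx2 was highest in the same cells at 8.93 ± 6.68 CPM, on 14 UMIs and with overlap. Pcgf6 and Ring1 were highest in MEP/early Ery-like cells, Pcgf6 at 25.0 ± 3.16 CPM and apart from HSC/MPP-like cells at 17.8 ± 1.43, and Ring1 at 27.7 ± 1.73 CPM with overlap of the next class.

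Rnf2 was highest in Baso/mast-like cells (69.7 ± 53.9 CPM on 31 UMIs), then in HSC/MPP-like (37.7 ± 8.83) and GMP/early GN-like cells (33.2 ± 5.39). It stood at 20.9 ± 2.61 CPM in Late GN-like cells, apart from 15.9 ± 0.743 in MEP/early Ery-like and 5.98 ± 0.321 in Late Ery-like cells. Cbx8 ran from 7.86 ± 1.44 CPM in GMP/early GN-like to 0.416 ± 0.720 in Late Ery-like cells, with every neighbouring pair overlapping. Pcgf5 ran from 50.9 ± 14.2 CPM in HSC/MPP-like to 25.9 ± 10.3 in ProMo-like cells, where only Late GN-like and Late Ery-like cells were apart among neighbours. Pcgf1 ran from 13.3 to 6.39 CPM, with every pair of neighbours overlapping.

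**Figure D3:**
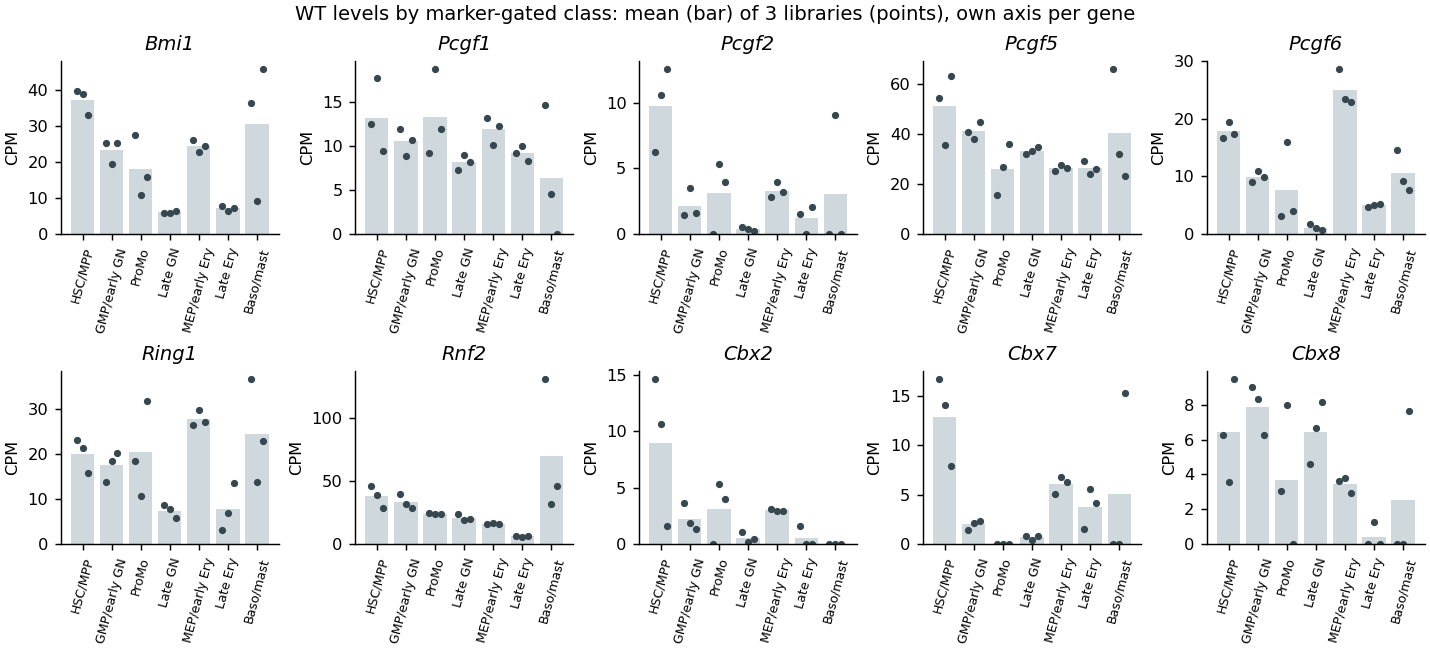
WT levels in CPM of the 10 PRC1 genes in 7 cell classes, with a point per library and a bar for the mean over 3 libraries. Bmi1, Pcgf2, Cbx2 and Cbx7 peak in HSC/MPP-like cells, Pcgf6 and Ring1 in MEP/early Ery-like cells, and Bmi1 is lowest in Late GN-like cells at 5.96 CPM.

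Within classes, Bmi1 was higher in libraries with deleted Ezh2, including the classes where WT cells held little of it. In Late GN-like cells Bmi1 stood at 5.91, 5.70 and 6.27 CPM in WT, at 49.0, 50.3 and 49.3 CPM in E2-KO, at 5.66, 5.28 and 7.14 CPM in G12D and at 50.4, 59.6 and 57.7 CPM in G12D/E2-KO. In Late Ery-like cells it stood at 7.69, 6.24 and 7.21 CPM in WT and at 56.1, 51.3 and 53.3 CPM in E2-KO. In HSC/MPP-like cells it stood at 39.7, 38.9 and 33.1 CPM in WT, at 66.9, 85.1 and 55.0 CPM in E2-KO, at 19, 15.5 and 30.4 CPM in G12D and at 75.6, 86.2 and 98.3 CPM in G12D/E2-KO. In all 7 classes the 3 E2-KO libraries lay above the 3 WT libraries, and the 3 G12D/E2-KO libraries above WT and above G12D. Over all cells, ranges were apart in either direction for 25.7%, 25.2% and 13.7% of genes in these 3 contrasts, and the shares within classes were not computed. The comparison with G12D depends on the table chosen for the matched cells.

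In E2-KO against WT, Bmi1 was called in 4 of 7 classes. The log2 change was 2.97 in Late GN-like (SE 0.20, adjusted p = 5.23e-09), 3.01 in Late Ery-like (SE 0.28, adjusted p = 1.51e-07), 1.87 in MEP/early Ery-like (adjusted p = 8.92e-07) and 1.75 in GMP/early GN-like cells (adjusted p = 2.89e-06). The share of genes called higher in these classes was 1.01%, 1.35%, 1.91% and 1.57%. It was not called in HSC/MPP-like (1.0, SE 0.28, adjusted p = 0.157), ProMo-like (1.79, adjusted p = 0.0951) or Baso/mast-like cells (1.47, adjusted p = 0.356), where 0.196%, 0.0651% and 0.0917% of genes were. ProMo-like cells passed without G12D/E2-KO T1 (adjusted p = 0.0415) and without G12D/E2-KO T3 (adjusted p = 0.0472). With classes taken from WT clusters and the nearest WT cell, HSC/MPP-like (1.06, adjusted p = 0.025) and ProMo-like cells (1.79, adjusted p = 1.58e-06) were both called. Only 3 of 7 classes were called with cells as deposited, and Late GN-like cells were not (2.95, adjusted p = 0.0987).

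In G12D/E2-KO, Bmi1 was called in 7 of 7 classes against WT and in 7 of 7 against G12D. This counts the Baso/mast-like class, whose name is less certain in this genotype. Against WT the log2 change ran from 1.28 in HSC/MPP-like cells (adjusted p = 0.00574) to 3.07 in Late GN-like cells (adjusted p = 1.21e-09), where over the 7 classes together 1.91% of tests called a gene higher. Against G12D it ran from 1.57 in ProMo-like cells (adjusted p = 0.00557) to 3.97 in Late Ery-like cells, where the share was 1.28%. The G12D level in Late Ery-like cells rested on 3, 1 and 3 Bmi1 UMIs. With cells as deposited 5 of 7 classes were called against WT, without Late GN-like (3.04, adjusted p = 0.0542) and Baso/mast-like cells (1.84, adjusted p = 0.0952). Against G12D it was then 1 of 7, HSC/MPP-like cells, and Late Ery-like cells stood at 1.55 (adjusted p = 0.962). Single libraries decided some of these calls. Against WT, HSC/MPP-like cells lost the call without WT T2 (1.30, adjusted p = 0.0746) or WT T3 (1.17, adjusted p = 0.148), ProMo-like cells without WT T2 (1.52, adjusted p = 0.0885), and Baso/mast-like cells without any 1 of WT T1, WT T2, WT T3, E2-KO T1 and G12D/E2-KO T2 (1.31 to 2.16). Against G12D, ProMo-like cells lost it without G12D T1 or T3 (1.57 and 1.36), and Baso/mast-like cells without any 1 of the G12D libraries or G12D/E2-KO T2 (1.5 to 2.22). No class was called between G12D and WT, nor between G12D/E2-KO and E2-KO, where 0.11% and 0.13% of tests over the 7 classes called a gene in either direction. HSC/MPP-like cells of G12D lay below WT in all 3 libraries, with a difference of -0.62 (SE 0.31, adjusted p = 0.998), which was 0.02 with cells as deposited.

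**Figure D4:**
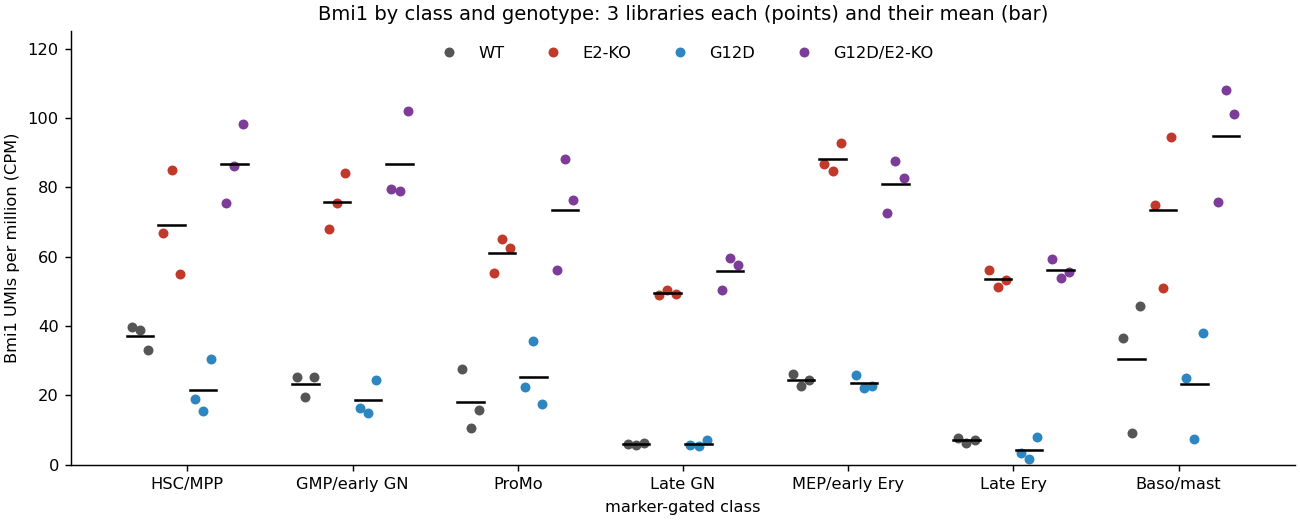
Bmi1 in CPM in 7 cell classes and 4 genotypes, with a point per library and a bar for the mean over 3 libraries. WT and G12D libraries fall from the HSC/MPP-like to the Late GN-like and Late Ery-like classes, while E2-KO and G12D/E2-KO libraries stay at 49.0 CPM or more in every class.

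Whether the change differs between classes depended on the scale. The difference between each class and HSC/MPP-like cells was taken in each library and compared between the 6 libraries with deleted and the 6 with intact Ezh2 by an exact two-sided permutation test (924 groupings, 12 tests with Benjamini-Hochberg adjustment, smallest possible p 0.00216). This test was chosen after the class levels had been seen. On log2(CPM + 1), Late GN-like minus HSC/MPP-like cells averaged -2.05 with intact Ezh2 and -0.534 with deleted Ezh2. The gain was thus 1.51 larger than in HSC/MPP-like cells (95% interval 1.01 to 2.03, permutation p adjusted 0.0130). Late Ery-like cells gave 1.77 (1.39 to 2.17, permutation p adjusted 0.0130) and GMP/early GN-like cells 0.498 (0.121 to 0.896, permutation p adjusted 0.0346). The GMP/early GN-like call was lost without any 1 of 8 of the 12 libraries, among them WT T2 (0.389) and E2-KO T3 (0.393, permutation p adjusted 0.0866), and with a larger margin between classes (0.539, permutation p adjusted 0.127). With cells as deposited none of the 3 classes passed, with 1.35 in Late GN-like and 1.45 in Late Ery-like cells (permutation p adjusted 0.0519 each) and 0.459 in GMP/early GN-like cells (permutation p adjusted 0.121).

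On the CPM scale no class passed the same test. With classes taken from WT clusters and the nearest WT cell, GMP/early GN-like cells did pass on CPM (13.6 CPM, permutation p adjusted 0.0173), as did ProMo-like cells on log2(CPM + 1) (0.503, permutation p adjusted 0.0162). The gain in Late GN-like cells was -1.70 CPM relative to HSC/MPP-like cells (95% interval -16.0 to 13.2, permutation p adjusted 0.862), and in Late Ery-like cells 0.835 CPM (-15.6 to 17.4, permutation p adjusted 0.892). In E2-KO against WT the mean gain was 31.8 CPM in HSC/MPP-like, 43.6 in Late GN-like, 46.5 in Late Ery-like, 52.5 in GMP/early GN-like and 63.5 CPM in MEP/early Ery-like cells. The ratio between classes was smaller with deleted Ezh2. The level in HSC/MPP-like cells was 6.71, 6.81 and 5.28 times that in Late GN-like cells in WT and 3.36, 2.94 and 4.25 times in G12D. It was 1.36, 1.69 and 1.12 times in E2-KO and 1.5, 1.45 and 1.70 times in G12D/E2-KO.

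RNA carried over from other cells can add to a low class, so the 6 MEP/early Ery markers were measured in Late GN-like cells. They stood there at 1.19% to 4.41% of their level in MEP/early Ery-like cells over the 12 libraries. The same markers set the classes, so cells that carried much of them were kept out of the Late GN-like class. This holds the share low, so it cannot measure carry-over, and the part of carry-over in Bmi1 was not tested. Bmi1 stood at 21.7% to 31.4% of its MEP/early Ery-like level in libraries with intact Ezh2 and at 53.2% to 69.7% in those with deleted Ezh2. None of the other 9 genes was called in any class. Over the 7 classes together, 1.91% of tests called a gene higher in G12D/E2-KO against WT and 1.28% against G12D. In E2-KO against WT the share was 0.0651% to 1.91% by class. At such shares, no call among 33 pairs of gene and class says little about these genes. Over 33 pairs of gene and class that could be tested, the lowest adjusted p was 0.160 in E2-KO against WT, 0.0705 in G12D/E2-KO against WT (Rnf2 in MEP/early Ery-like cells, 0.54) and 0.0548 in G12D/E2-KO against G12D (Cbx8 in GMP/early GN-like cells, -0.76).

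The rest of the Polycomb machinery was counted in the same fits. Of 26 other PRC1 subunits, all tested, 0 were called in E2-KO, where 1.59% of all genes were called in either direction. In G12D/E2-KO against WT 2 were called, both higher, where the share was 5.69%. Bcor, the scaffold of the PCGF1 complex, had means of 16.6 CPM in WT and 27.8 CPM in G12D/E2-KO (0.65, SE 0.16, adjusted p = 0.0423). At T1, T2 and T3 it stood at 15.3, 17.2 and 17.3 CPM in WT and at 17.4, 32.5 and 33.6 CPM in G12D/E2-KO. The G12D/E2-KO T1 library thus lay close to WT. In E2-KO its mean was 25.9 CPM (0.64, SE 0.16, adjusted p = 0.0785), so this change was not particular to the double mutant. Auts2, which joins the PCGF5 and PCGF3 complexes, had 4.28 CPM in WT and 9.35 CPM in G12D/E2-KO (1.08, SE 0.27, adjusted p = 0.0434). The list median was 0.22 in E2-KO and 0.14 in G12D/E2-KO against WT. With each library left out in turn, Bcor stayed called in 6 of 12 fits and Auts2 in 5 of 12, with log2 changes of 0.48 to 0.83 and 0.65 to 1.29, and both lost the call without any 1 WT library, without G12D T1 and without G12D/E2-KO T2, among others. Of the 8 enzymes and partners that remove ubiquitin from H2A, 7 were tested and 0 were called in either contrast. Among 11 PRC2 genes, Ezh2 was called lower in both (-1.92, adjusted p = 0.000357, and -2.36, adjusted p = 0.000115). Jarid2, an accessory subunit that guides PRC2, was called higher in G12D/E2-KO against WT (0.59, SE 0.13, adjusted p = 0.0294), and it stayed called in 7 of 12 fits with a library left out, but in none without a WT library, without E2-KO T1 or without G12D/E2-KO T2.

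Of 7 genes described as repressed by BMI1 or PRC1 in blood cells, 6 were tested, of which 1 was called higher in E2-KO (all genes 1.30%) and 2 in G12D/E2-KO against WT (3.73%). Their median log2 change was 1.33 and 0.57, beside 0.00 and 0.01 over all genes tested. All 6 means were above WT in E2-KO, and the share of all genes with a mean above WT was not computed. The 6 include the B cell factors Ebf1 and Pax5, which were higher in E2-KO and lower in G12D/E2-KO and not called in either. These are described below beside the share of B lymphoid-like cells. Cdkn2a was at 0.119, 0.0846 and 0 CPM in WT and at 0.254, 0.228 and 0.237 CPM in G12D. It was at 6.11, 9.09 and 12.6 CPM in E2-KO, while G12D/E2-KO had 6.87, 3.66 and 0.389 CPM. It was called in E2-KO (adjusted p = 0.0234) and in G12D/E2-KO (adjusted p = 0.0396), the genotypes in which Bmi1 was high, and the WT level rested on 2, 2 and 0 UMIs. In both contrasts the call was lost without any 1 WT library, without E2-KO T2 and without G12D T2, and in G12D/E2-KO also without G12D T1, G12D T3 or G12D/E2-KO T2. The fitted log2 change was 7.12 (SE 1.16) in E2-KO and 5.53 (SE 1.21) in G12D/E2-KO, and with each library left out it was 6.19 to 8.04 and 4.47 to 6.37. In G12D/E2-KO T3, Bmi1 was at its highest (91.7 CPM) while Cdkn2a was near the intact level on 6 UMIs. Hoxa9, a homeobox gene of immature cells, was called in G12D/E2-KO against WT only (0.65, SE 0.17, adjusted p = 0.0496), and it stayed called in 4 of 12 fits with a library left out, but in none without a WT library. It is also 1 of the HSC/MPP markers, and HSC/MPP-like cells made up 3.52% to 4.77% of WT and 4.43% to 6.88% of G12D/E2-KO cells. The part of this share in the result was not tested.

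The remaining genes of this list were not called. Cdkn1a, which encodes the cell cycle inhibitor p21, stood at 12.1, 9.09 and 5.12 CPM in WT and at 20.1, 23.1 and 22.9 CPM in E2-KO (1.39, adjusted p = 0.0694). Cdkn1c, which encodes the inhibitor p57, stood at 1.19, 0.507 and 0.82 CPM in WT and lay above that range in E2-KO, at 1.35 to 2.18 CPM (1.12, SE 0.40, adjusted p = 0.2), on 12 to 47 UMIs per library. The B cell factors Ebf1 and Pax5 differed by 1.28 and 2.24 in E2-KO (adjusted p = 0.498 and 0.373) and by -1.55 and -1.15 in G12D/E2-KO (adjusted p = 0.278 and 0.549). The share of B lymphoid-like cells was 0.837% to 10.4% in WT, 12.8% to 14.5% in E2-KO and 0.0382% to 4.25% in G12D/E2-KO. The part of that share in these values was not tested. Cdkn2b gave 29 UMIs in all and was below the filter.

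Over all cells, none of the tested neighbours of Bmi1 was called in E2-KO against WT, where 1.59% of all genes were. Commd3 stood at 108, 96.8 and 83.8 CPM in WT and at 72.5, 89.8 and 78.0 CPM in G12D. It stood at 145, 166 and 110 CPM in E2-KO, while G12D/E2-KO had 116, 108 and 105 CPM. The E2-KO libraries lay just above WT, with a log2 difference of 0.52 (SE 0.13, adjusted p = 0.0694). It passed by DESeq2 (0.51, adjusted p = 0.0154) and without G12D/E2-KO T3 (0.52, adjusted p = 0.0483). Within classes, Commd3 was called in MEP/early Ery-like cells in E2-KO against WT, with means of 173 and 115 CPM (0.62, SE 0.13, adjusted p = 0.0132), and in Late Ery-like cells in G12D/E2-KO against G12D (1.11, SE 0.27, adjusted p = 0.0415). The G12D/E2-KO libraries overlapped WT (0.14, SE 0.13, adjusted p = 0.5) but lay above G12D (0.36, SE 0.13, adjusted p = 0.218). Of the 10 nearest genes in the tables, 5 on each side, 5 were tested. Mllt10 at 465 kb and Dnajc1 at 283 kb upstream differed by 0.04 and -0.03 in E2-KO against WT, and Pip4k2a at 156 kb downstream by 0.18. Spag6, the nearest gene downstream at 7.38 kb, had 6 UMIs in all. Armc3, 512 kb downstream, differed by 0.02 in E2-KO and was called in G12D/E2-KO against WT (0.64, SE 0.13, adjusted p = 0.0233), where 5.69% of all genes were. It was not called without any 1 WT library or without G12D/E2-KO T2.

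The level of Bmi1 was correlated with that of each of the other 12847 genes tested, on log2(CPM + 1) across the 12 libraries. The 5 highest Pearson correlations were 0.98 each, for Chchd7, Hectd2, Bex2, Spats2 and Dip2c. The 5 lowest were for RP24-484I1.3 (-0.98), Arf5 (-0.97), Adtrp (-0.96), Ezh2 (-0.95) and Tmem45a2 (-0.91). These values describe 12 libraries that fall into 2 clusters, with and without Ezh2, and the values were computed across that split. Among the PRC1 genes the correlation with Bmi1 was 0.70 for Rnf2 (rank 996 from the highest), 0.58 for Pcgf2 (rank 1975) and 0.32 for Pcgf5. It lay between -0.03 and 0.08 for Pcgf1, Pcgf6, Cbx2 and Cbx7, and it was -0.51 for Ring1 and -0.83 for Cbx8.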

How the data were processed

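UMI counts per gene and cell were deposited by the authors for 12 libraries, after alignment of each sample to mm10 with Cell Ranger and removal of cells with over 10% mitochondrial UMIs and of Scrublet doublets. The annotation was not given in the sources used here. No further doublet caller was run, and 0 columns of other series were present. The highest mitochondrial share left in a cell was 9.998%.

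Cells of different tables were compared, and 2896 G12D T1 cells that matched G12D/E2-KO T1 cells (1494 of them equal in every gene) were counted only in G12D/E2-KO T1, a choice that rested in part on their Ezh2 and Bmi1 levels. Cells were placed in classes by marker lists, from the mean of each marker scaled between its 0.25 and 0.99 quantiles, with a score of at least 0.2 and a margin of 0.05. The scoring was set after the data were seen.

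Counts were summed per library, and per library and class, and tested in R 4.3.3 with edgeR 4.0.16 and limma 3.58.1, using TMM, filterByExpr and robust glmQLFit, with genotype and time point as factors. P-values were two-sided and adjusted over all genes of a contrast, and an adjusted p under 0.05 was a call. The fit over all cells covered 12848 genes, with 6 residual degrees of freedom and a biological coefficient of variation of 0.190. Class differences were tested with an exact permutation test on CPM and on log2(CPM + 1), with a pseudocount of 1. Alternatives included DESeq2 1.42.0, other scaling and filters, other class rules and leaving out each library. In simulated data for E2-KO against WT over 12800 genes, 66% of 2-fold and 100% of 4-fold changes were recovered, and 7 unchanged genes were called. The simulation gave all genes the same spread and held no differences in time, sex or cell mix. It therefore does not give the power for genes with few UMIs in these libraries. Levels at low UMI numbers carry a large counting error, and UMI numbers are given for some of them.

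The named genes are the 10 genes, other Polycomb genes past the threshold in E2-KO or G12D/E2-KO against WT, described target genes, the 5 nearest genes on each side of Bmi1, and the 5 highest and 5 lowest correlations. The genes and lists were chosen with earlier results of these data known. Promoters came from RefSeq (GRCm38.p6) and gene positions from GENCODE vM21.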

Additional observations from a re-analysis of the deposited data

Results flagged for a closer look

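The change of Bmi1 with deleted Ezh2 differed between cell classes on log2(CPM + 1). Relative to HSC/MPP-like cells, it was larger by 0.498 in GMP/early GN-like cells, by 1.51 in Late GN-like cells and by 1.77 in Late Ery-like cells, in exact permutation tests of 6 against 6 libraries (adjusted p = 0.0346, 0.0130 and 0.0130). With cells as deposited none of the 3 passed (0.459, 1.35 and 1.45). On the CPM scale the same differences were 12.0, -1.70 and 0.835 CPM, and none passed (adjusted p = 0.195, 0.862 and 0.892), though GMP/early GN-like cells did so with WT clusters and the nearest WT cell (13.6 CPM, exact permutation p adjusted 0.0173).

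Bmi1 stood at 65.4 CPM in the 2896 cells of the G12D T1 table that matched G12D/E2-KO T1 cells and were left out of G12D T1. This rested on 1419 Bmi1 UMIs. The same cells make up most of G12D/E2-KO T1, so its level is no independent comparison. In the other cells of the G12D T1 table Bmi1 stood at 15.5 CPM, and in the table as deposited at 41.6 CPM.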

How the results depend on the processing

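Bmi1 stayed called in E2-KO and in G12D/E2-KO against WT under all 21 alternatives of each contrast. With each library left out in turn its log2 change was 1.90 to 2.07 in E2-KO, 1.88 to 2.05 in G12D/E2-KO and 2.04 to 2.18 against G12D. The number of the 10 genes called in G12D/E2-KO against WT was 1 to 2 with a library left out and 2 without the 4 T3 libraries, an alternative added after seeing the data, the second gene being Ring1 (-0.72, adjusted p = 0.0416). With cells as deposited, 0 of the 10 genes were called in G12D/E2-KO against G12D, where Bmi1 changed by 1.56 (SE 0.28, adjusted p = 0.299). The matched cells then count in both tables, and which table they belong to was not tested. Bmi1 was then called in 1 of 7 classes against G12D. In E2-KO against WT, WT clusters with the nearest WT cell gave 7 of 7 classes, with a Meg-like class in place of the Baso/mast-like one, which was not tested there, and the cause was not tested. With a library left out, the classes called were 4 to 5 in E2-KO, 4 to 7 in G12D/E2-KO against WT and 5 to 7 against G12D. Of 408 class values of Bmi1, 23 lost the call and 4 gained it. No called one changed sign, while uncalled ones in G12D against WT did, such as Late Ery-like cells from -1.05 to 1.31 and Late GN-like cells from -0.01 to 1.21 with cells as deposited. The other 9 genes gave 1458 alternative values, of which 3 passed, all for Ring1. Of 140 WT class levels, 24 moved by more than 1 SD.

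Genotypes share time points. Libraries of the same time point deviated from their genotype means with a median correlation of 0.13 (-0.19 to 0.42, 18 pairs), against -0.06 for different time points, so the numbers were not taken to pair mice. Without the replicate block, Bmi1 changed by 1.96 in E2-KO (adjusted p = 2.25e-05) and no call of the 10 genes changed. Genes called were 190, 11, 608, 196 and 9 in the 5 genotype contrasts, and 5 in the interaction in place of 12.

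Counts over all genes moved more. DESeq2 called 454, 147, 1317, 356 and 694 genes, and leaving out a library gave 66 to 458 in E2-KO, 4 to 136 in G12D, 91 to 1368 in G12D/E2-KO against WT, 44 to 350 against G12D, 0 to 467 against E2-KO and 0 to 34 in the interaction. Depth limits Pcgf2, Cbx2, Cbx7 and Cbx8, with 24 to 139 UMIs per library, and all genes in the small classes.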

Other observations

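In cell classes with too few cells for a test, Bmi1 was again higher in most libraries with deleted Ezh2. In B lymphoid-like cells it stood at 30.5, 29.2 and 21.0 CPM in WT, at 20.4, 29.3 and 49.1 CPM in G12D and at 99.3, 104 and 111 CPM in E2-KO. In G12D/E2-KO it stood at 119 and 112 CPM at T1 and T2, and T3 held 1 such cell with no Bmi1 UMI. In Meg-like cells, which carry megakaryocyte markers, it stood at 37.3, 13 and 14.4 CPM in WT and at 20.9, 29.5 and 14.6 CPM in G12D. E2-KO had 74.5, 77.3 and 167 CPM, and G12D/E2-KO had 70.6, 96.1 and 96.0 CPM. The Meg-like class held 15 to 152 cells per library.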
